A study of Homo sapiens with 12 samples.

Results

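The regions described here were those listed for OSU-ERb-12, a ligand of oestrogen receptor beta, in 22Rv1 cells. They were all 17931 regions of 1 deposited list, out of 49496 regions in the 3 lists of the study, and covered 4111.8 kb of the genome. The list was taken because its prefix, WT, is also that of the titles of the OSU-ERb-12 samples. The labels do not explain this prefix and give the same letters as the genotype of every sample, so each result rests on that match.

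Chromatin accessibility was measured by ATAC-seq, in which a transposase cuts DNA that is free of nucleosomes and other obstacles. 22Rv1 is an established human prostate cancer cell line with the genotype label WT in every group. The 12 samples formed 4 groups of 3, all kept for 6 h. The group of interest received 100 nM OSU-ERb-12 and was set against vehicle. Another group received 1 µM enzalutamide, and the last both agents, with no doses in its own labels. Enzalutamide, an antiandrogen drug, was used in the other treated groups only, and all samples were of 1 cell line. The lists give positions on the hg38 build for the nucleosome-free fraction, with a score of 0 in every row. They hold no value per sample, no depth and no direction, so a listed region may have been more or less accessible than in vehicle. The name of the list carries the tag neg, which may stand for a sign, but no source used here defines it and no direction was taken from it. The test that produced the list is not described in the sources used here, and no replicate error can be given.

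Oestrogen receptor beta, the product of ESR2, is a nuclear receptor that binds DNA as a dimer at oestrogen response elements, or is tethered to other factors such as AP-1. In prostate epithelium it is known mainly for opposing proliferation. Ligand-bound nuclear receptors often act at enhancers far from the genes they control, and cofactors recruited there open or close the surrounding chromatin.

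Gene starts came from the RefSeq promoter table of GRCh38.p14, which gave a start for 15843 of 20037 protein-coding genes. The promoters most fully covered by a listed region included those of CUX2, which also ranked among the 20 genes with most regions, and of INHBC, SLC35B2 and PTCH1. Promoters of PPP1R15B and AKT1 are shown because the first lay in a cluster of regions and the second is a central growth kinase. Each sequence is the 250 bases before the start, 5′ to 3′ on the strand of the gene. Capitals mark matches on either strand to the oestrogen response element or its half-site GGTCA, AP-1 (TGANTCA), forkhead (TGTTTAC), SP/KLF (GGGCGG), NRF1 (GCGCATGC), CCAAT box (CCAAT) and ETS (CCGGAAG).
CUX2, chr12:111033915-111034164, plus strand: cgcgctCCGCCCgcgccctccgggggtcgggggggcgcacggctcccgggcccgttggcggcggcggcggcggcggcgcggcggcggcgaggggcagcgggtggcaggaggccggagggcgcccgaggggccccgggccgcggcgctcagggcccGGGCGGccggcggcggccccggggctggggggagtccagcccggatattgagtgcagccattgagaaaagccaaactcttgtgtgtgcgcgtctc
INHBC, chr12:57434534-57434783, plus strand: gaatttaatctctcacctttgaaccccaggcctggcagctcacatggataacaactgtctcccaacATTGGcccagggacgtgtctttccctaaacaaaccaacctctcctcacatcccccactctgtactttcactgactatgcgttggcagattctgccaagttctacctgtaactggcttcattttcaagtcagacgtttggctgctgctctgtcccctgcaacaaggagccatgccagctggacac
SLC35B2, chr6:44257529-44257778, minus strand: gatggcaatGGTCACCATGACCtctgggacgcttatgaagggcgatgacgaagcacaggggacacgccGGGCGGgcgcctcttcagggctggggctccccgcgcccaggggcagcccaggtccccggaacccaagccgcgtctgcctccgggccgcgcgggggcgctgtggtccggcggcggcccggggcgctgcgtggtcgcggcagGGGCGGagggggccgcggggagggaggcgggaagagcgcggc
PTCH1, chr9:95516972-95517221, minus strand: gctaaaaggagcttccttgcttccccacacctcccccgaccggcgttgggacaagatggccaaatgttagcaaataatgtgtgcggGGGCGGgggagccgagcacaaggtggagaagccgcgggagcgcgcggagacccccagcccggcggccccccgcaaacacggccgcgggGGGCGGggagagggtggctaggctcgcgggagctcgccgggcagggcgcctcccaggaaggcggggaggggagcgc
PPP1R15B, chr1:204411818-204412067, minus strand: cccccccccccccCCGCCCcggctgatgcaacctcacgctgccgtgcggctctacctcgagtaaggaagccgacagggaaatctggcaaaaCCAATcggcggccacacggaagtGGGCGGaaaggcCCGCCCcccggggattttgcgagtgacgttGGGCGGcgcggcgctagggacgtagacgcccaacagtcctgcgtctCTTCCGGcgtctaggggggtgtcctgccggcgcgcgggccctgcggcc
AKT1, chr14:104795749-104795998, minus strand: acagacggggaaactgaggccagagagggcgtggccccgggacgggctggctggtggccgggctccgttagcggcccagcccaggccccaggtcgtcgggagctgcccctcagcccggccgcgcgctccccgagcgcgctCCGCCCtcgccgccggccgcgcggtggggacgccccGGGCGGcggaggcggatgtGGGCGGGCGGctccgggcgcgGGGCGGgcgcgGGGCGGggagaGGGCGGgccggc

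CUX2 encodes a homeodomain factor, and its listed region (chr12:111033901-111034350) was 450 bp wide and covered all 300 bp of the promoter window, which runs from 250 bases before to 50 after the start. Its sequence held 2 SP/KLF matches and none to the oestrogen receptor half-site. INHBC, which encodes a subunit of the inhibin and activin family, had a region of 300 bp that covered 267 bp of the window, and the only capitals in its sequence are a CCAAT box. PTCH1, the hedgehog receptor, had a region of 200 bp, all of it inside the window, with 2 SP/KLF matches inside it. PPP1R15B, which directs protein phosphatase 1 to the translation factor eIF2, held SP/KLF, CCAAT and ETS matches. AKT1, a kinase of the insulin and growth factor pathway, held 7 SP/KLF matches.

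SLC35B2, a Golgi transporter of the sulphate donor PAPS, was the single promoter covered by 100 bp or more that held a full oestrogen response element, searched as GGTCA, 3 bases of any kind and the reverse complement. The element (chr6:44257757-44257769) began 241 bases before the start. It lay 57 bp outside the listed region (chr6:44257451-44257700), so the region itself did not contain it. A region of the enzalutamide list also covered this promoter (chr6:44257201-44257700) and ended at the same base.

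A total of 164 of 22199 promoter windows, belonging to 156 genes, were covered by 100 bp or more. Their sequences were close to those of all windows in base composition, with a median GC content of 63.0% against 62.33%. The half-site was present in 34.76% of the covered windows (exact 95% interval 27.5 to 42.57) and in 35.62% of all windows. AP-1 was present in 5.488% (2.54 to 10.16) against 6.153%, and forkhead in 3.049% (0.9972 to 6.971) against 2.847%. SP/KLF was present in 58.54% (50.59 to 66.16) against 56.28%, ETS in 14.02% against 12.84%, the CCAAT box in 35.37% against 34.69% and NRF1 in 4.268% against 3.739%. The full element was present in 1 of 164 (0.6098%; 0.01544 to 3.35) and in 8 of all windows (0.03604%). The androgen response element half-site TGTTCT was found in 9.756% against 11.74%. The short CTCF piece CCCTC was in 84.76% (78.32 to 89.89) against 76.6%. It was the only one of the 10 motifs for which the share in all windows lay outside the interval of the covered windows. It was in 83.07% of the windows covered by the enzalutamide list and in 81.72% of those covered by the list for both agents. In the enzalutamide list, 1447 windows were covered to this extent, with a median GC content of 66.67% and SP/KLF in 71.18%. A match is a run of letters, not a bound site, and sequence beyond these windows was not analysed here.

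Most listed regions lay far from gene starts. The promoter table has no row for chromosome 8, so starts were counted without it. Of 16535 regions elsewhere, 1015 (6.138%; exact Clopper-Pearson 95% interval 5.777 to 6.515) overlapped the 1 kb on either side of a protein-coding gene start. The median distance from the centre of a region to the nearest start was 48.07 kb, with quartiles of 13.97 and 142.9 kb. The centre lay 10 to 50 kb away for 30.8% of regions, 100 to 500 kb away for 27.52% and over 500 kb away for 5.649%. Of all 17931 regions, 9293 (51.83%; 51.09 to 52.56) were inside the body of a protein-coding gene, 2189 (12.21%) were inside a long noncoding RNA gene only, and 6228 (34.73%) were in no annotated gene. The intervals cover the counting of regions only.

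Near starts, region centres were more frequent than 2 kb away and most frequent just downstream of the start. Of 944 regions centred within 1 kb of a start, 387 (41.0%; 37.84 to 44.21) were centred upstream, and the fullest bin of 100 bp was 100 to 200 bp downstream, with 79 regions. The bins on both sides of the start held 50 and 54, and the outermost bins, 1900 to 2000 bp upstream and downstream, held 13 and 15. Of the 944, 217 (22.99%; 20.34 to 25.81) were centred within 200 bp of the start, compared with 31.11% (29.78 to 32.46) of such regions in the enzalutamide list and 39.41% (35.87 to 43.03) in the list for both agents; these shares were not tested. Near the other end of genes, 381 regions (2.304%; 2.081 to 2.544) lay within 1 kb of a gene end, 340 of them away from any start.

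**Figure D1:**
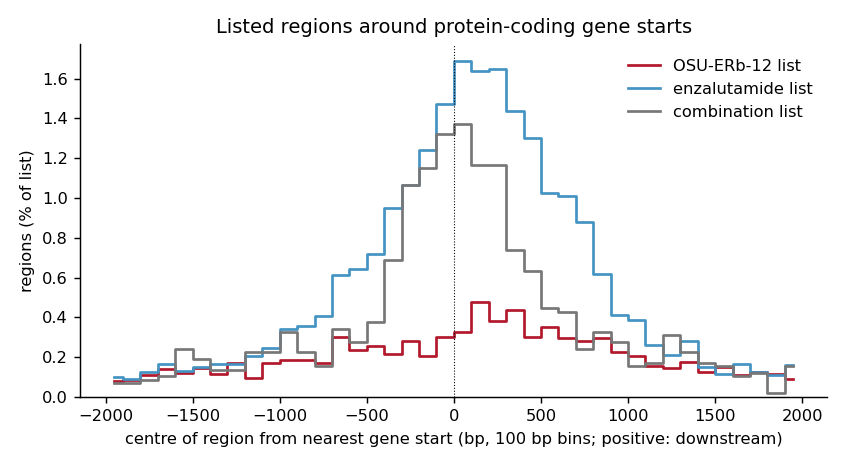
Share of each list (%) by distance of the region centre from the nearest protein-coding gene start, in bins of 100 bp, positive values downstream, without chromosome 8. The OSU-ERb-12 line stays under 0.5% in every bin and is highest at 100 to 200 bp (0.4778%), while the enzalutamide line rises to 1.691% just after the start and the line for both agents to 1.372%.

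Compared with the other lists, OSU-ERb-12 regions were at gene starts less often. The share was 6.138% against 20.29% of 23953 enzalutamide regions, a difference of -14.16 percentage points (two-sided Fisher's exact test, odds ratio 0.2569 with 95% interval 0.2393 to 0.2757, log10 of the adjusted p = -379.0). Against the list for both agents it was 6.138% and 13.1% of 5832 regions, a difference of -6.962 points (two-sided Fisher's exact test, odds ratio 0.4338 with 95% interval 0.3929 to 0.479, adjusted p = 2.82e-58). These 2 tests compare the deposited lists and not samples: regions are not replicates, and the lists were taken to share the single vehicle group.

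Wide regions were rare. A width of 200 bp, the smallest in the list, was held by 11858 regions (66.13%), and 87 were of 500 bp or more. The share at gene starts was much the same in each width class, from 5.918% (5.12 to 6.798) at 250 bp to 7.5% (2.802 to 15.61) at 500 bp or more. The widest region, of 1150 bp (chr3:140572151-140573300), lay in CLSTN2, which encodes calsyntenin 2, a synaptic membrane protein. The next in width were an 800 bp region in no gene on chromosome 5 (chr5:133911101-133911900) and 3 regions of 750 bp, in EML3, in NOP14 and outside genes on chromosome 3 (chr3:72105551-72106300).

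Inside long genes the regions were spread from end to end. For genes of 50 kb or more with a known strand there were 5573 pairs of a region and a gene. The first decile of the gene body held 13.91% of them and the last decile 11.25%, and the 8 deciles between held 8.721% to 10.19% each.

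Among genes, 7844 of 20037 protein-coding genes (39.1%) held a region in their locus, which here is the body plus 10 kb beyond each end. This share is the background for the counts of genes with a region in their locus that follow. The median number per gene was 0. There were 4785 genes with 1 region, 3059 with 2 or more, 635 with 4 or more and 48 with 10 or more. A region within 1 kb of the start was held by 1073 of 15843 genes (6.77%), which is the background for counts of genes with a region at the start.

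Longer genes held regions more often. In the decile of genes with the shortest loci (median 21.64 kb) 17.12% held a region, and in the decile with the longest (median 269.7 kb) 72.26% did. Per length the order was the opposite over most of the range: the second decile held 13.34 regions per Mb of locus and the longest decile 6.132, with 9.575 in the shortest. Counts for gene lists are therefore given beside the number that results when each member is assigned the share of its own length decile, called the number by length. It is a description and not a test.

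**Figure D2:**
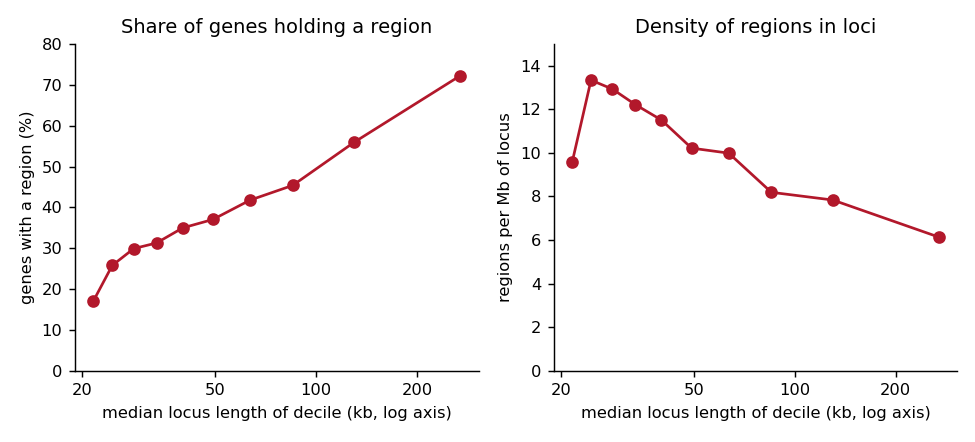
Protein-coding genes in deciles by locus length (median of each decile in kb, log axis). Left, the share of genes with an OSU-ERb-12 region rises from 17.12% to 72.26%; right, regions per Mb of locus fall from 13.34 in the second decile to 6.132 in the longest.

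The genes with the most regions were very long. RPS6KC1, a kinase-like protein of endosomes (chromosome 1, 213051241 to 213862735), RABGAP1L, a regulator of Rab GTPases (chromosome 1, 174159520 to 174995308), and AUTS2, a neurodevelopmental chromatin factor (chromosome 7, 69598475 to 70793506), held 19 each. FHIT, a tumour suppressor at a common fragile site (chromosome 3, 59747277 to 61251452), and CSMD1, a complement regulator (chromosome 8, 2935361 to 4994914), held 18 each. IQCJ-SCHIP1 held 17, and CNTNAP2, a neurexin family adhesion protein, held 16. KALRN, a guanine nucleotide exchange factor, and ERC2, a scaffold of the presynaptic active zone, held 15 each, and SLC9A9, an endosomal sodium/proton exchanger, held 14. CLSTN2 and SDK1, 2 synaptic adhesion genes, also held 14.

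The remaining genes of the top 20 held 12 or 13 regions. They were PAPPA2, a protease of insulin-like growth factor binding proteins, SRGAP3, a Slit-Robo effector, PLXNA4, a semaphorin receptor, CACNA1C, the pore of a cardiac and neuronal calcium channel, RYR2, the cardiac ryanodine receptor, TMEM132B, ANKS1B and CUX2. The loci of the 20 genes were 336.4 kb or longer, with a median of 821.6 kb. All 20 lay on chromosomes 1, 3, 7, 8 and 12, 4 of them had a region within 1 kb of a start, and 19 held more OSU-ERb-12 than enzalutamide regions. The exception was ANKS1B, with 13 and 16. The genes were ranked by their OSU-ERb-12 count, which favours a higher count in this list than in another, so nothing is read from that number.

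**Figure D3:**
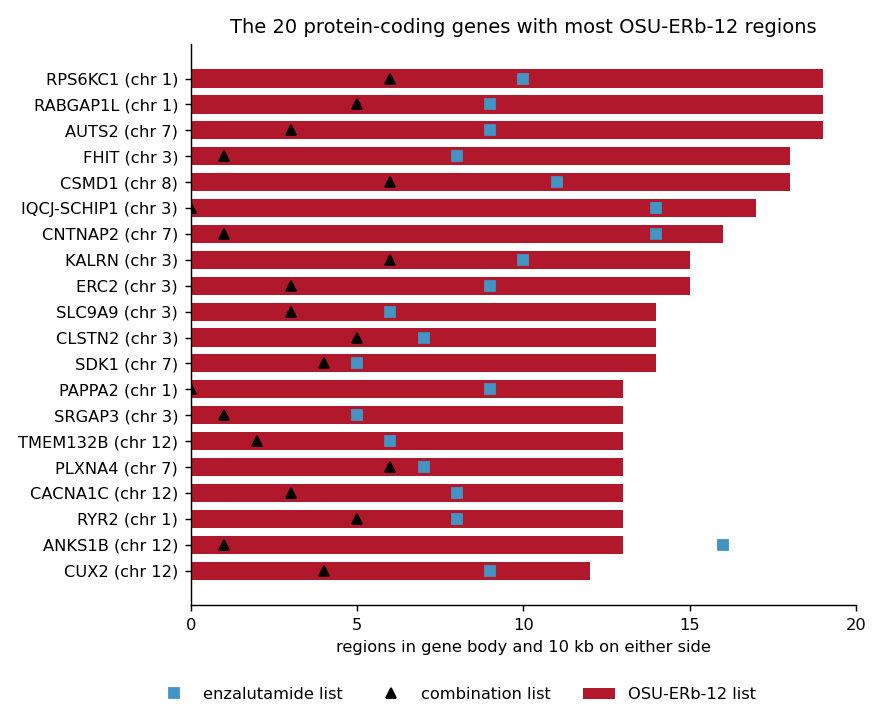
Number of regions in the locus of the 20 protein-coding genes with most OSU-ERb-12 regions (bars), with the number from the enzalutamide list (squares) and from the list for both agents (triangles). Bars run from 12 to 19, and the square lies beyond the bar only at ANKS1B.

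Since all of these genes were on 5 chromosomes, the same ranking was made for the other chromosomes, after the values had been seen. RANBP2, a nucleoporin gene whose annotated body spans 108719482 to 109842301 on chromosome 2, led with 12. GRID1, a delta glutamate receptor on chromosome 10, NAV2, a neuron navigator on chromosome 11, and PDE4D, a cyclic AMP phosphodiesterase on chromosome 5, held 11 each. SYN3, a synapsin, AFF3, a subunit of transcription elongation complexes, and GPHN, the scaffold gephyrin, held 10 each. RPTOR, the mTORC1 subunit raptor, and GSE1 held 9 each. EVC2, a ciliary hedgehog component, had 7 in a locus of only 200.5 kb, and SIPA1L3 had 7, with 2 within 1 kb of a start.

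Ranked by regions per 100 kb among genes with 4 or more, short loci came first. PSMB4, a core proteasome subunit (chromosome 1, 151399573 to 151401937), held 5 regions in 22.36 kb, or 22.36 per 100 kb. None was inside the gene: their centres lay 3823 and 2823 bp upstream and 2902, 5177 and 9427 bp downstream of the start. The enzalutamide list had no region at PSMB4. LOC124900940 on chromosome 5 held 5 regions (21.3 per 100 kb), and LOC124900301 on chromosome 11 held 4, with 2 within 1 kb of its start. KREMEN2, a receptor for Dickkopf inhibitors of Wnt signalling, DOK2, an adaptor of tyrosine kinases, and MARCHF9, a ubiquitin ligase, held 4 each.

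CSRP1, a LIM domain protein of the cytoskeleton, held 6 regions in 43.59 kb, of which 1 was 123 bp downstream of a start. KIAA0040 held 7 in 56.0 kb, spread from 8163 bp upstream to 41162 bp downstream of its start, with 1 centred 463 bp upstream. The enzalutamide list had none there. Other genes in this ranking were ZFAND2A, ANO8, DPH1, a diphthamide synthesis enzyme, AIMP2, a scaffold of aminoacyl-tRNA synthetases, PPP1R15B, INHBC, LAD1, FAM162A, ZNF48, WDR87, KRT7, a keratin of simple epithelia, and SLC60A1. Of the 20, 13 were on chromosomes 1, 3, 7, 8 and 12, 6 had a region at a start, and 16 held more OSU-ERb-12 than enzalutamide regions, a number that the ranking favours in the same way.

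Of the oestrogen receptor genes, ESR2 (chromosome 14, 64226707 to 64338613) held 2 regions. The one inside the gene was centred 9790 bp upstream of the nearest of its annotated starts, and the other lay 5957 bp beyond the gene's end. ESR1, the gene of oestrogen receptor alpha, held none in a locus of 492.9 kb, while the enzalutamide list had 6 there.

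FOXA1, the pioneer factor of luminal prostate cells, held 1 region, centred 11149 bp downstream of its start. GREB1, a classical oestrogen target, held 1 inside its body. KLK3, the gene of prostate-specific antigen, held 1 in its flank. HOXB13, TMPRSS2 and FKBP5, all androgen-linked genes of the prostate, held none. In the enzalutamide list HOXB13 had 3, FKBP5 had 2 and TMPRSS2 had none.

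Gene lists were described by function, with 3284 members in 61 lists. In 45 of the lists the share of members with a region was above 39.1%, and in 45 the count was above the number by length. Each count is a description, since the members were chosen with earlier results known. Start regions are named below for some lists only. Among known starts, 1 of 71 potassium channels and 29 of 430 ZNF genes had one, against 6.77% of all genes. Lists with none included keratins (34 known starts), Notch (25), adhesion G protein-coupled receptors (19) and calcium channels (17). Start counts were 5 of 34 for TGF-beta and BMP, 4 of 36 for hedgehog and cilium and 3 of 34 for proteasome. They were 3 of 26 for NF-kB and 5 of 25 for cancer drivers.

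Many counts rest on the flanks of the genes. With the gene body alone, the number of members with a region moved by over 1.5 times in 26 of the 61 lists. It went from 16 to 10 for prostate lineage factors, from 23 to 14 for androgen response genes, from 12 to 7 for AP-1 and immediate early genes and from 17 to 11 for prostate cancer driver genes. It went from 23 to 13 for the MAP kinase pathway, 11 to 7 for Notch, 16 to 10 for p53 and apoptosis, 11 to 6 for interferon and 11 to 5 for the epithelial-mesenchymal transition. Among transcription factor and array families it went from 9 to 2 for SOX, 11 to 7 for ETS, 16 to 6 for HOX, 166 to 105 for ZNF, 14 to 6 for keratins, 22 to 4 for histones and 35 to 18 for olfactory receptors. It went from 26 to 7 and 25 to 10 for cytosolic and mitochondrial ribosomal proteins, 17 to 5 for the proteasome, 14 to 5 for complex I, 14 to 8 for integrins and 5 to 3 for GABA-A receptors. For the markers it went from 8 to 2 for luminal, 8 to 5 for neuroendocrine, 9 to 5 for stromal and endothelial and 8 to 5 for immune genes.

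Nuclear receptors, the family of the drug's target, held regions at 31 of 48 genes, 64.58% (exact interval 49.46 to 77.84) against 39.1% of all genes. The number by length was 23.21, with a median of 1 region per gene. A description added after the data were seen also compared members within chromosome groups (1, 3, 7, 8 and 12, then X and Y, then the others). The number was then 24.02. This second number is given for some lists only. It takes each chromosome whole, although regions were unevenly spread along chromosome 1, as described below. The enzalutamide list, of 25317 regions, had a region at 35 of the 48 nuclear receptor genes, and the list for both agents at 19. The share of all genes is not given here for those lists. RARB, a retinoic acid receptor, held 12 and THRB, a thyroid hormone receptor, 8. Both lie on chromosome 3. Regions lay within 1 kb of the start at 5 of 41 members, against 6.77% of all genes. These were RARB, with the region centred 379 bp downstream, PPARG, the receptor of fat cell formation (718 bp upstream), NR1H2, a liver X receptor (143 bp downstream), NR1H4, the bile acid receptor (1010 bp upstream), and NR2F1, an orphan receptor (928 bp downstream). Coregulators of nuclear receptors held regions at 17 of 30 genes, against 16.47 by length, led by PPARGC1B, NCOA3 and NCOA2 with 3 each.

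**Figure D4:**
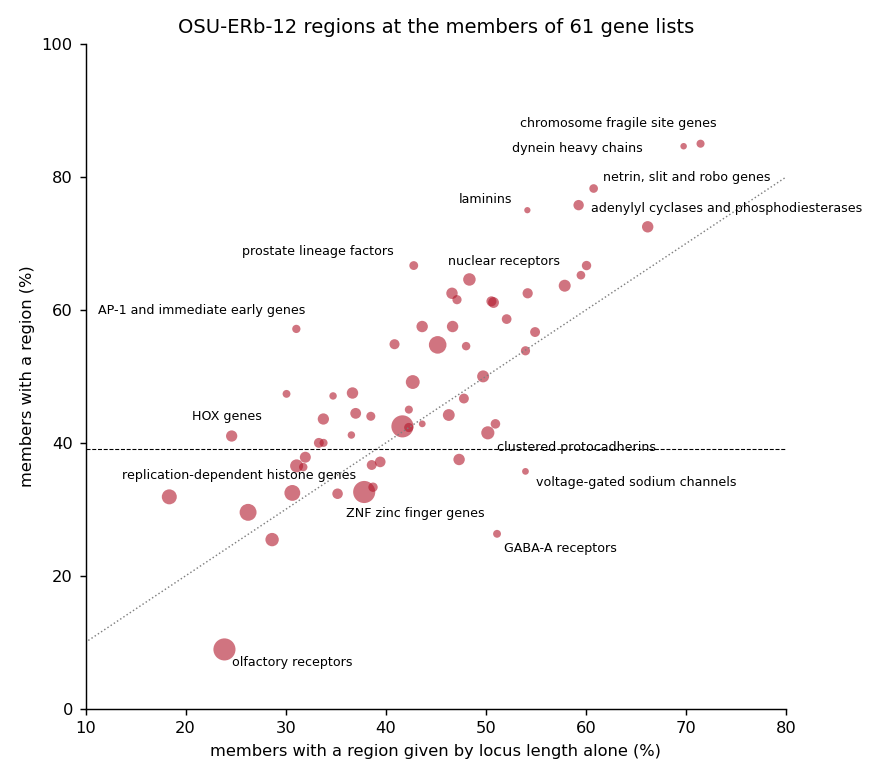
Share of members with an OSU-ERb-12 region (vertical) against the share given by locus length alone (horizontal) for 61 gene lists, both in %, with point area by number of members up to a limit. The dashed line is the share of all genes (39.1%) and the dotted line marks equal shares; olfactory receptors (8.929%) and GABA-A receptors (26.32%) lie below it, AP-1 and immediate early genes (57.14%) and prostate lineage factors (66.67%) above it.

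Prostate lineage factors held regions at 16 of 24 genes (66.67%; exact interval 44.68 to 84.37), with 10.27 by length. Among those with 2 each were FOXA2, SPDEF, ETV1, MEIS2 and TP63. MEIS2, a homeodomain partner of HOX proteins, was the only one of the 17 members with a known start that had a region there (846 bp downstream). The share over all genes was 6.77%. AP-1 and immediate early genes encode rapidly induced transcription factors and their regulators. They held regions at 12 of 21 (57.14%; exact interval 34.02 to 78.18), with 6.523 by length. The interval includes the share of all genes, 39.1%. ATF7 held 4, and JUNB, EGR3 and BATF3 held 2 each. JUN had a region centred 897 bp and EGR2 one centred 591 bp downstream of the start. The enzalutamide list had a region at 18 of the prostate lineage factors and at 17 of the AP-1 and immediate early genes.

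Oestrogen response genes held regions at 17 of 31 (54.84%; exact interval 36.03 to 72.68; 12.67 by length). The interval includes the share of all genes, 39.1%. CA12, a carbonic anhydrase, held 3, and CCND1, SIAH2, EGR3, RET and FHL2 held 2 each. Regions were at the starts of CXCL12, a chemokine (272 bp downstream), and MYB, a proliferation factor (692 bp downstream). Androgen response genes held regions at 23 of 40 (57.5%; exact interval 40.89 to 72.96; 18.67 by length). They were led by RHOU, a small GTPase, with 8 on chromosome 1 and ZMIZ1, a transcriptional coactivator, with 4. Start regions were present at STEAP4, a metalloreductase (294 bp downstream), UAP1, an enzyme of UDP-sugar synthesis (256 bp upstream), and SLC38A2, an amino acid transporter (877 bp upstream). Of members with a known start, 2 of 24 oestrogen and 3 of 26 androgen response genes thus had a region there. The enzalutamide list had a region at 22 of the oestrogen response genes and at 32 of the androgen response genes.

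Cell cycle genes held regions at 19 of 40 (47.5%; exact interval 31.51 to 63.87; 14.67 by length). Of the 31 with a known start, 7 had one there, against 6.77% of all genes. These were RB1, the retinoblastoma tumour suppressor (775 bp upstream), CDKN1B, the inhibitor p27 (818 bp upstream), CDK4, a kinase of the G1 phase (510 bp downstream), E2F2 (467 bp upstream), E2F4 (770 bp downstream), PLK1, a mitotic kinase (161 bp downstream), and BUB1, a spindle checkpoint kinase (163 bp downstream). Among prostate cancer driver genes, 17 of 29 held a region (15.1 by length), with 9 at FOXP1 and 5 at ZFHX3. At their starts were AKT1, CDK12, a kinase of transcription (364 bp downstream), CUL3, a ubiquitin ligase scaffold (287 bp upstream), RB1 and CDKN1B. The region at AKT1 was centred 2 bp from the start. DNA repair genes held regions at 15 of 40 (37.5%; exact interval 22.73 to 54.2; 18.93 by length).

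In signalling pathways, TGF-beta and BMP genes held regions at 25 of 40 (62.5%; 18.65 by length). Start regions were found at the receptors ACVR2A and ACVR2B (829 and 890 bp upstream), the activin antagonist FST (271 bp downstream), the shared mediator SMAD4 (663 bp upstream) and the inhibitor SMAD7 (582 bp downstream). Hedgehog and cilium genes held regions at 19 of 43 (19.9 by length), with 7 at EVC2 and 6 at GLI3. At starts were PTCH1, EVC (424 bp downstream), the factor GLI2 (332 bp downstream) and the antagonist HHIP (406 bp upstream). Wnt genes numbered 29 of 59 (25.19 by length, and 27.57 with chromosome groups compared as well), led by LGR6 with 5. TCF7L2, a nuclear effector, had a start region 297 bp upstream.

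MAP kinase genes held regions at 23 of 40 (17.45 by length), receptor tyrosine kinases at 22 of 36 (18.27 by length), with 7 at ALK, 5 each at EGFR and DDR2, and start regions at AXL, CSF1R and DDR2. Adenylyl cyclases and phosphodiesterases, which make and break down cyclic nucleotides, held them at 25 of 33 (75.76%; 19.56 by length), with 11 at PDE4D, 9 at PDE1C and 8 at ADCY5. Notch genes numbered 11 of 30, against 11.58 by length, with 7 at the coactivator MAML3.

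Axon guidance genes were often covered, with smaller differences from their number once chromosome groups were compared as well. Netrin, slit and robo genes held regions at 18 of 23 (78.26%; 13.97 by length), with 13 at SRGAP3, 9 at ROBO2 and 8 at ROBO1, all on chromosome 3. Semaphorins, plexins and neuropilins held them at 19 of 31 (15.67 by length). Of 27 with a known start, 6 had a region there, against 6.77% of all genes: PLXNA3, PLXNA4, SEMA3C, SEMA3D, SEMA3E and SEMA6D. Ephrins and Eph receptors numbered 12 of 22 (10.56 by length), with 10 at EPHB1. Long neuronal adhesion and synapse genes held regions at 29 of 40 (26.46 by length), led by CSMD1 and CNTNAP2. Genes of common fragile sites held regions at 17 of 20 (85.0%; 14.29 by length), with 19 at AUTS2, 18 at FHIT, 11 at PDE4D and 10 at IMMP2L. Their median locus was 1394.8 kb. With chromosome groups compared as well, the number was 14.65 for netrin, slit and robo genes, 16.84 for semaphorins and 11.72 for ephrins. It was 28.18 for the long neuronal genes and, below the number by length, 13.51 for fragile site genes.

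Cell adhesion and matrix families lay on both sides of their number by length. Classical cadherins held regions at 15 of 23 (13.68 by length), with 7 at CDH4, and integrins at 14 of 30 (14.34 by length), with 7 at ITGA9. Collagens numbered 28 of 44 (25.46 by length), with 6 at COL5A1, and laminins 9 of 12 (6.497 by length). Adhesion G protein-coupled receptors numbered 12 of 28 (14.27 by length), with 4 at ADGRL2.

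Transcription factor families varied. SOX genes held regions at 9 of 19 (5.716 by length), with 5 at SOX5, and forkhead genes at 19 of 52 (16.17 by length), with 9 at FOXP1 and 4 at FOXP2. KLF and SP factors numbered 9 of 27 (10.46 by length) and T-box genes 7 of 17 (6.215 by length). ETS factors numbered 11 of 26 (42.31%), where locus length gives 42.29%. Of the 20 with a known start, 5 had a region there, against 6.77% of all genes. They were ELK3, ELK4, ETV6, FEV and GABPA. ETV6, a repressor, held 7 in all.

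Ion channel families differed. Potassium channels held regions at 52 of 95 (54.74%; 42.92 by length), led by KCNAB1 with 9. Voltage-gated calcium channels numbered 14 of 26 against 14.03 by length, but 3 of them held 12 or more: CACNA1C with 13, and CACNA1E and CACNA2D3 with 12 each. Voltage-gated sodium channels numbered 5 of 14 (7.553 by length) and GABA-A receptors 5 of 19 (26.32%; 9.71 by length). Glutamate receptors numbered 18 of 27 (16.21 by length), with 11 at GRID1 and 9 at GRM7.

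In some families that lie in arrays, neighbouring genes shared regions. Clustered protocadherins held regions at 22 of 53 genes, but these were 3 distinct regions. Replication-dependent histone genes counted 22 of 69 (12.67 by length) from 9 regions, and HOX genes 16 of 39 (9.595 by length) from 13, with 3 at HOXA3. In other such families the distinct regions outnumbered the genes that held one, but members still shared some. Counted per member there were 25 regions for keratins, 42 for olfactory receptors and 237 for ZNF genes, more than the distinct regions given next. Keratins numbered 14 of 55 (15.75 by length) from 18 regions, with 4 each at KRT7 and KRT8. Olfactory receptors held 39 regions at 35 of 392 genes (8.929%; exact interval 6.298 to 12.2), against 93.59 by length. Zinc finger genes named ZNF held 213 regions at 166 of 509 genes (32.61%; 192.6 by length).

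Ribosomal protein and complex I genes were each a little above their number by length. Cytosolic ribosomal protein genes held regions at 26 of 88 (29.55%; 23.09 by length) and complex I subunits at 14 of 37 (11.83 by length). Mitochondrial ribosomal protein genes held them at 25 of 77 (23.61 by length). Of 69 of these with a known start, 8 had a region there, against 6.77% of all genes. Proteasome subunits numbered 17 of 39 (13.17 by length), with start regions at PSMA3, PSMC4 and PSMD2. SWI/SNF subunits numbered 16 of 26 (12.25 by length), with 5 each at ARID2 and SMARCC1, and histone methyltransferases and demethylases 22 of 44 (21.88 by length), of which SMYD3 held 11. Dynein heavy chains numbered 11 of 13 (9.067 by length) and solute carriers 161 of 379 (157.9 by length), led by SLC9A9 and by SLC35F3 with 11.

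Stress and inflammatory pathways were a little above or below their number by length. Genes of the p53 pathway and apoptosis numbered 16 of 36 (13.32 by length), with 3 at APAF1, the core of the apoptosome. Genes of the NF-kB pathway numbered 12 of 30 (9.993 by length), with start regions at ICAM1, NFKBIZ and TNFAIP3. Interferon and antigen presentation genes numbered 11 of 34 (11.96 by length), steroid and sterol metabolism genes 13 of 35 (13.81 by length) and genes of the epithelial-mesenchymal transition 11 of 25 (9.624 by length).

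The list gives no level of any marker, so regions held at marker genes do not check the labelled cell type and are only described. Luminal epithelial markers held regions at 8 of 17 (5.903 by length), with 4 at KRT8 and 2 at KRT18. The luminal members counted 12 regions, of which 10 were distinct, and the loci of KRT8 and KRT18 overlap. Basal markers counted 6 of 14 (6.11 by length), neuroendocrine and neural markers 8 of 20 (6.755 by length), stromal and endothelial markers 9 of 20 (8.461 by length) and immune markers 8 of 22 (6.985 by length).

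Regions rarely stood in close groups. Of 17931 regions, 15951 had no neighbour within 5 kb, 885 pairs and 57 triples were found, and 9 clusters had 4 or more regions with gaps of at most 5 kb. The clusters held 39 regions, 0.2175% of the list, and 7 of the 9 were on chromosomes 1, 3 and 8. The largest had 6 regions in 8150 bp (chr3:155964851-155973000), outside coding genes and 20831 bp from GMPS, a GMP synthetase. The next had 5 regions in 6250 bp (chr21:7922101-7928350), 92469 bp from LOC102723475. Neither held a region of the other lists.

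One cluster covered a gene start, that of PPP1R15B (chr1:204409251-204414500), with 4 regions. Of these, 1 was centred 183 bp upstream, in the promoter printed above, and 1 was 392 bp downstream. Clusters of 4 also lay inside ANK1, which encodes ankyrin 1 (chr8:41685501-41693400), and CUEDC1 (chr17:57879701-57889950). Others were nearest to IL20RB, a cytokine receptor subunit, FCRL5, an Fc receptor-like protein of B cells, NFASC, which encodes neurofascin, and RYBP, a Polycomb component 205747 bp away.

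Across the genome, 8958 of the 17931 regions (49.96%) lay on chromosomes 1, 3, 7, 8 and 12, which made up 28.67% of the extent. Their density was 10.12 regions per Mb, against 4.075 on all others together. Chromosome 3 was densest (10.95 per Mb), followed by 12 (10.61), 1 (9.922), 8 (9.624), the gene-rich 19 (9.509) and 7 (9.466). The value for chromosome 1 is an average over unlike parts. Its windows of 5 Mb held 9 to 59 OSU-ERb-12 regions each up to 120000000, and 38 to 126 each from 145000001 on. This split was chosen after the values were seen. Chromosome X held 107 regions (0.6863 per Mb) and Y held 4. At the level of genes, 61.16% of chromosome 3 genes held a region, 54.0% on chromosome 12 and 8.844% on X. The number of copies of each chromosome in these cells was not analysed here, and its part in the density was not tested.

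**Figure D5:**
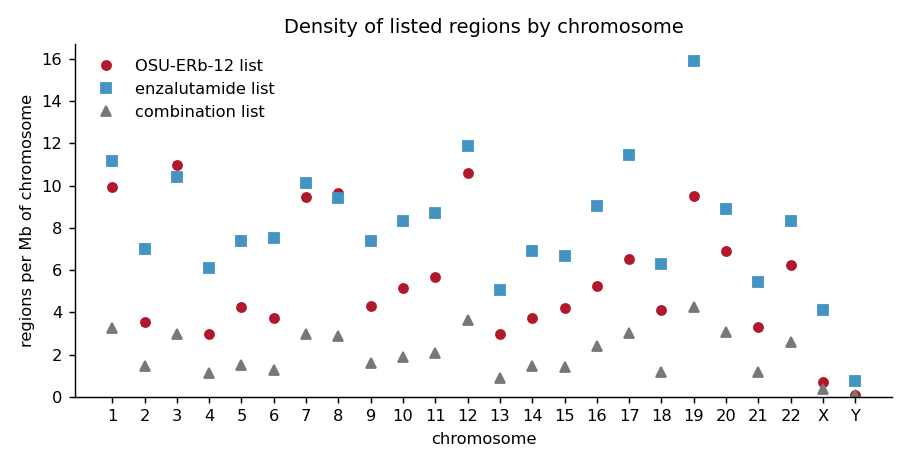
Regions per Mb on each chromosome for the 3 lists. The OSU-ERb-12 points on chromosomes 1, 3, 7, 8 and 12 lie between 9.466 and 10.95, and those on all other autosomes but 19 lie at 6.912 or lower.

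For every 100 enzalutamide regions, the OSU-ERb-12 list held 105.1 on chromosome 3, 102.3 on 8, 93.61 on 7, 89.43 on 12 and 88.91 on 1. The other autosomes ranged from 48.75 on chromosome 4 to 77.62 on 20, and X stood at 16.8. These ratios are descriptions of lists taken to share the vehicle group.

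In windows of 1 Mb that held a coding gene or a region of any list, the densest decile (291 of 2910) held 5276 regions, 29.42% of the list, and 318 windows held none. The fullest windows held 31 regions and lay on the long arm of chromosome 1. The window from 166000001 to 167000000 held 5 coding genes, among them ILDR2 with 5 regions in its locus and FAM78B with 4. The window from 175000001 to 176000000 held KIAA0040 with 7, TNR, which encodes tenascin R, with 10, and TNN, which encodes tenascin N, with 6. The window from 201000001 to 202000000 held 17 coding genes, with 10 regions at NAV1 and 6 at CSRP1. Chromosome 3 had 30 regions between 186000001 and 187000000, where DGKG, a diacylglycerol kinase, held 5 and ETV5, an ETS factor, held 3. On chromosome 12, the window from 6000001 to 7000000 held 29 regions and 40 coding genes, with 5 at CD9, which encodes a tetraspanin.

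Some long stretches held no region. The one with most coding genes ran from 28497751 to 33509350 on chromosome 6, which includes the major histocompatibility complex, and held 172 coding genes. The other lists were sparse there as well, with 2 and 1 regions. A stretch of chromosome 15 (28901051 to 32965900) with 27 coding genes held no region of any list. On chromosome X, the stretch from 100636451 to 105765700, with 63 coding genes inside it, had no OSU-ERb-12 region and 30 enzalutamide regions.

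Chromosome 2 was uneven as well. From 115000001 to 180000000, 13 windows of 5 Mb in a row held at most 6 regions each, and the next longest autosomal run of such windows was 6, on chromosome 9. This limit was set after the values were seen. The stretch held 43 regions (0.6615 per Mb), and 19 of its 245 coding genes held one. The rest of the chromosome held 816 regions (4.606 per Mb), and 372 of 1009 genes held one. The enzalutamide list had 263 regions in the stretch (4.046 per Mb) and 1430 in the rest (8.071 per Mb). Within the stretch, 7.954 Mb (150174751 to 158128400) held no OSU-ERb-12 region, 22 coding genes and 24 enzalutamide regions.

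Of 1562 annotated miRNA hairpins, 4 (0.2561%) were overlapped by a region and 42 (2.689%) lay within 1 kb of one. The mature sequences of the 4 are given 5′ to 3′ because these are the small RNA genes that the list touches, with the seed (bases 2 to 8) in capitals. No seed was shared.
hsa-miR-6084, hairpin chr1:20633679-20633788, within PINK1: uUCCGCCAgucgguggccgg
hsa-miR-5092, hairpin chr3:125151465-125151552, within SLC12A8: aAUCCACGcugagcuuggcauc
hsa-miR-10527-5p, hairpin chr12:63823663-63823727, in no coding gene: aAAGCAAAuguugggugaacggc
hsa-miR-4317, hairpin chr18:6374361-6374425, within L3MBTL4: aCAUUGCCagggaguuu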

How the data were processed

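ATAC-seq was done on 22Rv1 cells, 3 samples per group, called biological replicates per the labels' protocols. ATACSeqQC was used to take out nucleosome-free reads, per the labels' protocols, and the submitters' processing notes name FastQC, Trimmomatic and hg38. Not given in the sources used here are the peak caller, the test against vehicle with its threshold, and any shift for the transposase. Each deposited list is a BED file with positions and a score column, and the deposited score is 0 in every row. Depth is unknown.

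From the deposited lists, regions were counted 1-based (Python 3.11.15, pandas 2.3.3, numpy 2.4.6, scipy 1.17.1) against RefSeq genes of GRCh38.p14, the build of the lists. Overlap meant at least 1 bp, and boundaries fell on a grid of 50 bp. Shares have exact Clopper-Pearson 95% intervals, and Fisher's exact test was Benjamini-Hochberg adjusted over 2 tests. The counting was tested on simulated data.

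The members and gene lists were chosen with earlier results of these data known. Genes were named by rule: the 20 with most regions, the 20 densest with 4 or more (no overlapping loci), those at clusters, up to 4 leading members per list plus those with a start region, and a fixed set that includes GREB1, FKBP5, TMPRSS2, KLK3, HOXB13, FOXA1, ESR2 and ESR1. The text leaves out 1 gene list and some genes of this rule. Genes in dense windows and on the other chromosomes were named after their values were seen. Alternatives varied region width, windows, gaps and overlap. Exons and introns were not told apart, and no genome sequence beyond promoters and miRNAs was used here.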

Additional observations from a re-analysis of the deposited data

How the results depend on the processing

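No paired analysis was possible because the results come from region lists that carry no replicate columns, and for the same reason no replicate could be left out in turn. Of the 17931 regions, 6073 were at least 250 bp wide. The share of genes holding a region (39.15%) was 26.77% for the gene body alone, 63.81% with 50 kb on either side, 17.93% with regions of at least 250 bp only and 40.61% for autosomal genes only. The share of regions at gene starts (6.138%) was 13.57% with 5 kb on either side and 5.709% with at least 50% of the region inside the window. It was 8.092% over both ends of all coding genes, an alternative chosen after seeing the data. The 9 clusters became 1 with gaps of at most 2 kb, 37 with 10 kb and 0 with regions of at least 250 bp only. The densest decile of windows held 29.42% of regions, and 31.65% with 500 kb windows, 26.59% with 5 Mb windows and 33.51% with regions of at least 250 bp only. What lies behind these shifts was not tested. The share inside gene bodies (51.83%) moved by less than its interval under its 3 alternatives. Both differences in the share at gene starts kept their direction and stayed past the threshold with 5 kb on either side and with regions of at least 250 bp only. Of the 61 gene lists, 39 kept their count within 1.5 times with 50 kb on either side, 35 with the gene body alone and 4 with regions of at least 250 bp only. With no depth or values per sample, a gene without a listed region cannot be called unchanged.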

Other observations

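Several runs of neighbouring coding genes held no OSU-ERb-12 region in the gene body or within 10 kb of it. On chromosome 11, 64 genes in a row from OR4B1 to LRRC55 (48216810 to 57191717) held none, and 2 of them held an enzalutamide region. On chromosome 17, a run of 58 genes from TNS4 to KRT36 (40475834 to 41489910) held none, and 5 held an enzalutamide region. Another 58 genes on chromosome 17, from MMP28 to RPL23 (35756249 to 38853721), held none, and 3 held an enzalutamide region. On chromosome X, 75 genes from TBC1D25 to KANTR (48539714 to 53147921) held none, while 29 held an enzalutamide region and 13 a region listed for both agents. On chromosome 6, 24 genes from ZNF322 to H4C13 (26634383 to 27873534), part of the histone gene cluster, held none, while 21 held an enzalutamide region. These runs were picked after the values were seen, and they are given as values only.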
